A study of Mus musculus with 12 samples.

Results

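The 51 genes described here encode the machinery that copies DNA in S phase and the factors that start it, and they were picked by name from the 41457 genes in the tables of mouse splenic regulatory T cells (Treg). They were sorted into 8 roles: origin licensing (10 genes), helicase activation (6), the sliding clamp and its loader (6), polymerases and primase (8), single-strand binding and Okazaki fragment joining (5), nucleotide supply (5), copying of chromatin and DNA methylation (5) and entry into S phase (6). The 12 RNA-Seq libraries fell into 4 groups of 3: CD18wt and CD18Foxp3 Treg, each unstimulated or stimulated. All 51 genes passed the filter on low counts in every comparison.

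CD18Foxp3 mice carried loxP-flanked CD18 alleles (CD18fl/fl) together with Foxp3Cre, which drives Cre from the Foxp3 locus and so deletes in Treg, and the CD18wt controls were littermates with Foxp3Cre and unflanked CD18. Mice of both genotypes carried the RFP reporter at Rosa26, so the controls shared the Cre and the reporter. CD4+ cells positive for RFP were sorted from the spleen and kept overnight in interleukin-2 (IL-2) at 5 U/ml. Stimulated cells also received agonistic antibodies to CD3 (1 µg/ml) and CD28 (2 µg/ml), which engage the T cell receptor and its costimulator. The labels call the samples biological replicates, and the paper's plots of these data show individual mice. Whether 1 mouse gave both an unstimulated and a stimulated sample was not given in the sources used here, nor was the age of the mice. The comparisons ask what overnight stimulation does to Treg of each genotype and whether the genotypes differ in either state. CD18 is the beta chain shared by the beta2 integrins. The paper reports that CD18Foxp3 mice develop spontaneous inflammation in several organs and enlarged spleens. Loss of CD18 in the Treg and that setting cannot be told apart in the genotype comparisons.

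A resting T cell holds its genome unreplicated. To divide, it first loads the MCM helicase onto replication origins (licensing), then activates the helicase with Cdc45 and the GINS complex and starts DNA synthesis with primase and polymerases that run on the PCNA clamp. E2F transcription factors and cyclin E drive the genes for this machinery late in G1, and after antigen receptor signals T cells are known to switch on this program before dividing.

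Promoter sequence was taken from RefSeq (GRCm38.p6), where 43 of the 51 genes had at least 1 window of 300 bases around an annotated start, 53 windows in all. No window was held for Mcm4, Gins1, Gins2, Gins4, Rfc2, Prim2, Pole or Ccne2. Windows are shown because the genes rose together. First come those of the most strongly rising gene of each role, given up to the start and only outside GENCODE exons. Only the roles with the largest rise in CD18wt Treg were taken, and Ccne2 and Pole, which led their roles, had no window. Rfc3 and Lig1 led the roles with a smaller rise and are not printed, though their windows hold E2F words. In the 4 sequences printed here capitals mark the CCAAT word, which NF-Y binds, and no E2F word was found in the stretches printed. They are Mcm10 at chr2:5012792-5013041 on the minus strand, Orc1 at chr4:108579337-108579422, Chaf1a at chr17:56040166-56040415 and Rrm2 at chr12:24708004-24708240, the last 3 on the plus strand.
Mcm10: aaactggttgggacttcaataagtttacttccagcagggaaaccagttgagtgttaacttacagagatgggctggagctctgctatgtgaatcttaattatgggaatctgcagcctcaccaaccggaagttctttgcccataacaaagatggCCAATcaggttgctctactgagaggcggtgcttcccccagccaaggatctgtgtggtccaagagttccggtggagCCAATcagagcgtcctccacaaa
Orc1: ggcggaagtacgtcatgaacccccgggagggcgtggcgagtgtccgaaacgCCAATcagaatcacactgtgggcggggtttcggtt
Chaf1a: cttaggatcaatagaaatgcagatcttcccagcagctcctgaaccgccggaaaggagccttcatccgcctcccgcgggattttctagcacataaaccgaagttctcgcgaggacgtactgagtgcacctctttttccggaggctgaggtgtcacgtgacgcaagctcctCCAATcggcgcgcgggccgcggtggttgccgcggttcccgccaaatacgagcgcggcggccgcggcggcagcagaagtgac
Rrm2: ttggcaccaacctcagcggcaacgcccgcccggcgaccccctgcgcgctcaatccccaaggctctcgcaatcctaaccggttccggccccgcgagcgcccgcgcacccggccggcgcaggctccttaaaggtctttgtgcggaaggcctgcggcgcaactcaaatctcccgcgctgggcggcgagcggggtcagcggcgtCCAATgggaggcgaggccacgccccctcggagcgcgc

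E2F sites were searched as 4 words of 8 bases on both strands: TTTCCCGC, TTTCGCGC, TTTGCCGC and TTTGGCGC. At least 1 of them lay in 18 of the 53 windows (34.0%), against 2.3% of all windows in the RefSeq table and 4.1% of the windows of genes tested in CD18wt Treg. CCAAT lay in 60.4% of the members' windows against 37.4% of all windows and 38.1% of those of the tested genes. The word TTTGAA, read by the DREAM complex at genes of later cell cycle phases, lay in 15.1% of the members' windows against 17.9% of all windows and 12.2% of those of the tested genes. Orc1 held an E2F word 27 bases before its start, outside the stretch printed above. None of the E2F words contains CCAAT or TTTGAA. E2F words also lay at E2f2 and Gins3 (40 and -41 bases from the start). E2f2 did not rise, and Gins3 was not called in CD18wt Treg. The windows of Mcm10, Chaf1a and Rrm2, which rose strongly, held none. The stretches below are all of genes called higher and were chosen after the words were seen. They show E2F words in capitals with their flanks at genes of 3 roles.
Mcm5, chr8:75109347-75109376, plus strand: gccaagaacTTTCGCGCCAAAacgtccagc
Mcm6, chr1:128359795-128359824, minus strand: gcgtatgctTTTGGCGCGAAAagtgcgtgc
Mcm6, chr1:128359736-128359761, minus strand: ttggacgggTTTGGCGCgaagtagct
Pola1, chrX:93632277-93632302, minus strand: catcacaggGCGCCAAAtgcactccc
E2f3, chr13:29986064-29986083, minus strand: gaaaagccgGCGGGAAAtct
Cdc25a, chr9:109875503-109875528, plus strand: tgaattccgTTTGGCGCcaactagga
Mcm5 and the first Mcm6 stretch each hold 2 overlapping words on opposite strands. A word in a window is a match of letters and was not tested for binding.

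The libraries held 10665174 to 19005482 exon reads. Replicates correlated at r = 0.9628 to 0.983 across genes on a log2 scale of depth-scaled counts. Itgb2, the CD18 gene (ENSMUSG00000000290, chr10:77530252-77565708), is loxP-flanked at exon 3 only, and reads were counted over all of its exons. Its level was 465, 431 and 387 TPM (a transcript level scaled for gene length and for the total of the library) in unstimulated CD18wt and 229, 257 and 234 TPM in unstimulated CD18Foxp3 libraries. In stimulated cells it stood at 331, 329 and 330 TPM in CD18wt and 131, 202 and 183 TPM in CD18Foxp3. The genotypes did not overlap in either state. The log2 fold change was -0.86 (SE 0.09, edgeR adjusted p = 0.0041) in unstimulated and -0.94 (SE 0.17, adjusted p = 0.216) in stimulated cells.

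Markers of the sorted cells were high. Foxp3 was at 73.4 to 207 TPM and Il2ra, the IL-2 receptor alpha chain, at 107 to 1550 TPM over the 12 libraries. The Treg list (7 genes) summed to 1624 to 2107 TPM unstimulated and 2963 to 4459 TPM stimulated. Of its genes, 2 were called higher and 2 lower on stimulation in CD18wt Treg, and 4 higher and 2 lower in CD18Foxp3. Of defining genes of other cells, Ncr1 (NK cells) was at 0 in all libraries, and Ms4a1 (B cells) and Cd8a (CD8 T cells) stayed at or below 0.557 and 1.21 TPM. Cd79b, of the B cell receptor, ranged over 21.5 to 29.2 TPM in unstimulated and 8.17 to 18 TPM in stimulated libraries. The myeloid list (5 genes) summed to 1.58 to 15.8 TPM unstimulated and 0.443 to 1.77 TPM stimulated, and the CD8 and NK list (5 genes) to 27.6 to 38.8 and 13.8 to 28.3 TPM, mostly Cd8b1. The plasma cell list (4 genes), in which Xbp1 and Prdm1 are also used by activated T cells, went from 69.8 to 88.5 TPM up to 145 to 203 TPM. The germinal centre B cell list (5 genes) summed to 14.8, 17.4 and 16.3 TPM in unstimulated CD18wt and 8.53, 9.25 and 9.11 TPM in unstimulated CD18Foxp3 libraries, and to 5.8 to 9.12 TPM over the stimulated ones. Its Serpina9 was called lower in unstimulated CD18Foxp3 cells, at 0.915, 0.945 and 1.01 against 4.85, 6.54 and 5.63 TPM (edgeR adjusted p = 0.0041). Klrb1c, of the CD8 and NK list, went from 3.73, 4.16 and 5.32 TPM to 0 in every stimulated CD18wt library and from 2.37, 1.58 and 2.71 to 0, 0.243 and 0 TPM in CD18Foxp3. The part of these cells in the results below was not tested.

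Stimulation raised almost the whole replication program in both genotypes. A gene was called when its fold change was at least 1.5 and its edgeR adjusted p at most 0.01. In CD18wt Treg, 46 of the 51 genes were called higher, against 18.7% of the 11930 genes tested, and 0 were called lower, against 14.9%. In CD18Foxp3 Treg, 47 of 51 were called higher, against 20.9% of 12019 genes, and 0 lower, against 17.6%. The median log2 fold change of the 51 genes was 2.00 in CD18wt and 1.88 in CD18Foxp3 Treg, beside 0.02 and 0.01 for all genes tested. Every stimulated library exceeded every unstimulated one in TPM for 50 of the 51 genes in each genotype, against 47.8% of all genes in CD18wt and 47.9% in CD18Foxp3 Treg, and E2f2 was the exception in both. Exact permutation of the TPM values cannot go below p = 0.1 with 3 against 3 libraries.

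The summed TPM of the 51 genes was 1266, 1294 and 1404 in unstimulated and 5063, 5134 and 5507 in stimulated CD18wt libraries. In CD18Foxp3 libraries the sums were 1322, 1277 and 1559 unstimulated and 5027, 5317 and 5688 stimulated. The ratio of the group means was 3.96 in CD18wt and 3.86 in CD18Foxp3 Treg. On the log2(TPM + 1) scale the median gene itself rose by 0.36 (CD18wt) and 0.31 (CD18Foxp3), so TPM ratios run above the edgeR fold changes. There 80.7% and 75.9% of the calls over all genes were higher, where edgeR gave 55.7% and 54.3%. In bulk RNA, more cells in S phase and more RNA of these genes per cell cannot be told apart.

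**Figure D1:**
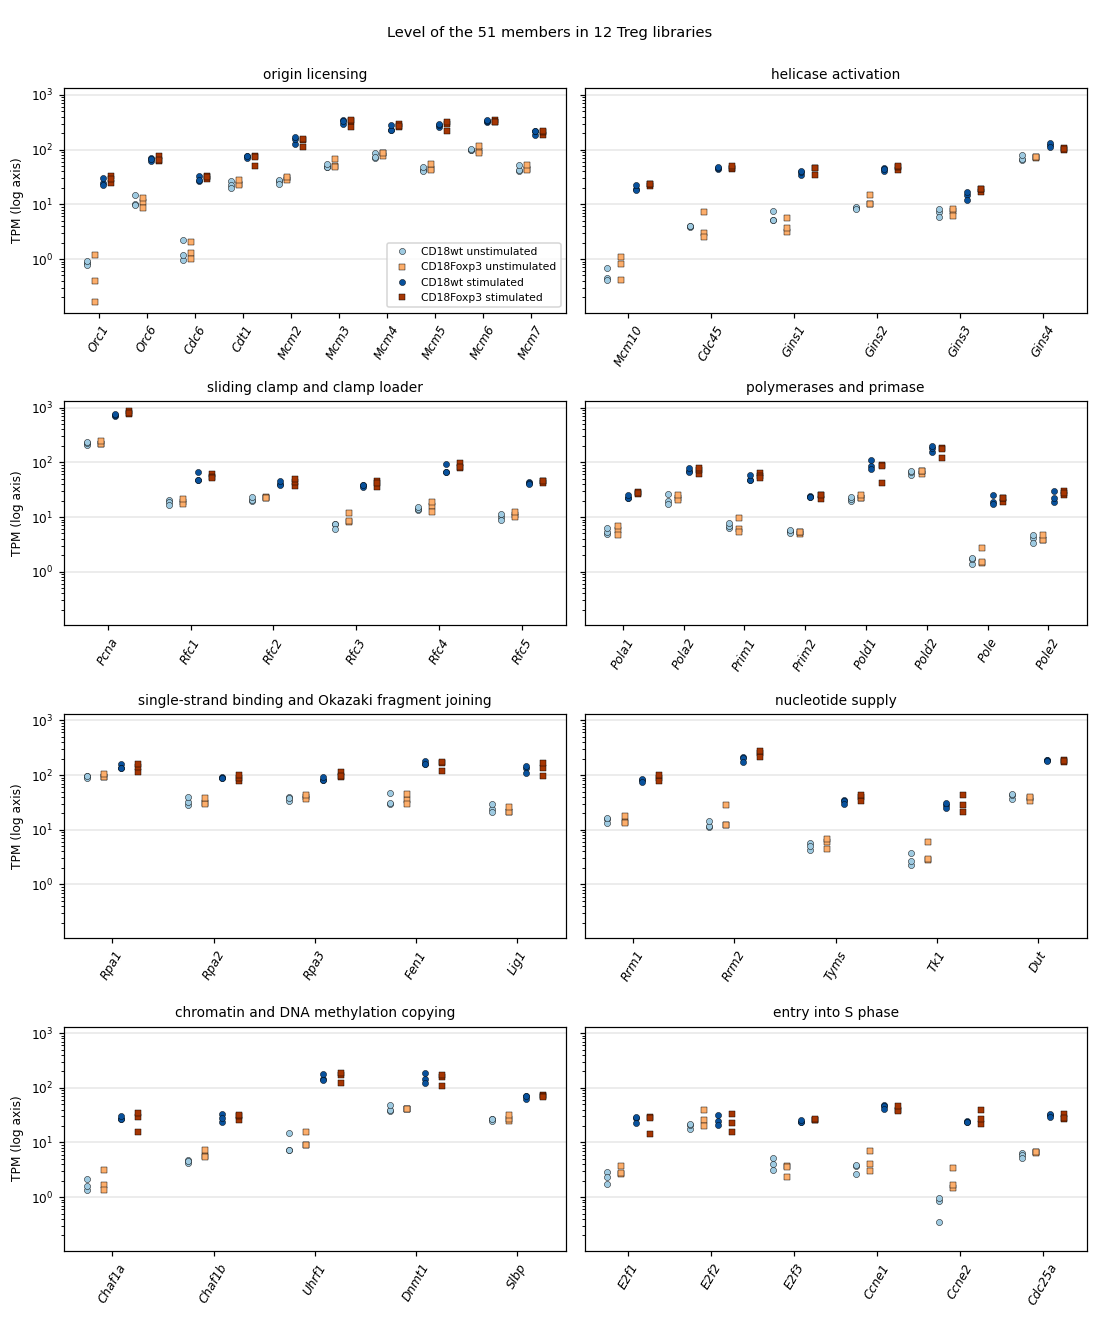
TPM of the 51 genes by role, on a log axis, with 1 point per library for unstimulated and stimulated CD18wt and CD18Foxp3 Treg. Stimulated points lie above the unstimulated ones of the same genotype for 50 genes and overlap for E2f2, and the rise is widest for genes with little RNA in unstimulated cells, such as Orc1 and Mcm10.

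The 10 licensing genes all rose in both genotypes, with log2 fold changes of 1.28 to 4.52 in CD18wt and 1.07 to 5.30 in CD18Foxp3 Treg. Orc1, the largest subunit of the origin recognition complex (ENSMUSG00000028587, chr4:108579423-108614833), was nearly silent at 0.861, 0.768 and 0.92 TPM in unstimulated CD18wt and reached 24.6, 22.2 and 30 TPM on stimulation. Its CD18Foxp3 values were 0.161, 0.399 and 1.16 TPM unstimulated and 32.3, 24.6 and 29 TPM stimulated. Its unstimulated CD18Foxp3 libraries held only 4, 8 and 25 exon reads. In that genotype Orc1 passed the filter only through its stimulated libraries, so its direction there was fixed in advance. It was not tested there with at least 10 reads required in every library. The log2 fold changes were 4.52 (SE 0.25, adjusted p = 8.7e-08) and 5.30 (SE 0.45, adjusted p = 1.6e-05). With 1 library left out, the second ranged from 4.83 to 6.32, the latter without unstimulated CD18Foxp3 replicate 3. Of the Orc1 exons 10.8% lie under an antisense gene, and reads were not assigned by strand.

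Transcripts of the MCM subunits that form the helicase ring were already present in unstimulated cells. Mcm6 stood at 100, 99.6 and 103 TPM in unstimulated and 319, 340 and 350 TPM in stimulated CD18wt libraries, and at 96.3, 87.7 and 118 against 344, 314 and 321 TPM in CD18Foxp3. Mcm3 went from 47.2, 48.8 and 53.7 to 292, 344 and 330 TPM in CD18wt and from 49.4, 48 and 68 to 258, 329 and 342 TPM in CD18Foxp3 libraries. Stimulated and unstimulated libraries were far apart for both. Log2 fold changes were 1.34 (SE 0.13) and 1.33 (SE 0.13) for Mcm6 and 2.29 (SE 0.15) and 2.13 (SE 0.16) for Mcm3 in CD18wt and CD18Foxp3 Treg. Of the factors that load the ring, Cdc6 rose by 3.96 and 4.07 on the log2 scale, and Cdt1 by 1.28 and 1.07.

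Helicase activation spanned log2 fold changes of 0.41 to 4.82 in CD18wt and 0.15 to 4.53 in CD18Foxp3 Treg. Mcm10, a factor needed for the helicase to begin unwinding (ENSMUSG00000026669, chr2:4989714-5012791), went from 0.451, 0.694 and 0.416 to 18.8, 18 and 22.8 TPM in CD18wt libraries. In CD18Foxp3 libraries it went from 0.82, 0.406 and 1.11 to 22, 24 and 23.9 TPM. Its log2 fold changes were 4.82 (SE 0.23, adjusted p = 3e-08) in CD18wt and 4.53 (SE 0.27) in CD18Foxp3 Treg. Cdc45, which joins MCM and GINS into the active helicase, rose by 3.15 and 3.13.

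Of the 4 subunits of the GINS complex, Gins1 and Gins2 were called higher in both genotypes, Gins3 in CD18Foxp3 Treg and Gins4 in neither. Gins1 rose from 5.2, 5.09 and 7.47 to 33.9, 38.8 and 39.9 TPM in CD18wt and from 3.14, 3.66 and 5.51 to 46.5, 34.2 and 46.9 TPM in CD18Foxp3 libraries (log2 fold changes 2.28, SE 0.27, and 3.02, SE 0.26). Gins4 lay at 64.2, 67.1 and 78.3 TPM unstimulated and 122, 132 and 113 TPM stimulated in CD18wt, and at 70.5, 71.8 and 73.9 against 97.7, 109 and 102 TPM in CD18Foxp3. Its groups were apart in TPM, yet its log2 fold changes were 0.41 (SE 0.16, adjusted p = 0.052) and 0.15 (SE 0.11, adjusted p = 0.256). Gins3 stood at 7.33, 8.33 and 5.82 against 15.1, 12 and 16.6 TPM in CD18wt, where it missed the threshold (0.62, SE 0.24, adjusted p = 0.045), and at 7.66, 6.08 and 8.25 against 16.8, 18.7 and 19.4 TPM in CD18Foxp3, where it was called (0.95, SE 0.18, adjusted p = 0.0014).

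Gins2 is a case where the counting matters. It went from 8.58, 9.09 and 8.29 to 46.6, 40.9 and 43.8 TPM in CD18wt and from 10, 14.7 and 10.2 to 41.8, 47.5 and 49.8 TPM in CD18Foxp3 libraries, with log2 fold changes of 1.94 (SE 0.15) and 1.62 (SE 0.17). Only 50.2% of its exon reads were placed at a single position, and 67.3% of its exon bases lie under Gse1 on the opposite strand. Uniquely placed reads alone gave 3.14 (SE 0.21) and 2.82 (SE 0.23).

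Pcna, the sliding clamp that holds polymerases on DNA (ENSMUSG00000027342, chr2:132249162-132253314), had the highest level of the 51 genes. It stood at 209, 222 and 234 TPM in unstimulated and 716, 731 and 768 TPM in stimulated CD18wt libraries. In CD18Foxp3 it stood at 217, 220 and 245 against 858, 752 and 782 TPM. The 3 replicates of each group lay close together, and the log2 fold changes were 1.33 (SE 0.14) and 1.45 (SE 0.11). Uniquely placed reads, 47.9% of the total for Pcna, gave the same 1.33 and 1.45.

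Of the clamp loader, Rfc1, Rfc3, Rfc4 and Rfc5 were called higher in both genotypes. Rfc3 rose from 7.6, 7.6 and 6 to 39.2, 35.2 and 38 TPM in CD18wt and from 8.03, 8.36 and 11.6 to 44.9, 35.6 and 41.4 TPM in CD18Foxp3 libraries (log2 fold changes 2.00 and 1.77). Rfc4 rose from 13.2, 14.3 and 15.4 to 66.9, 66.5 and 93.1 TPM and from 16.1, 12.1 and 18.8 to 98.3, 77.8 and 83.7 TPM (2.00 and 2.11). Rfc2 had a small adjusted p (0.0054 and 0.0042) but missed the fold threshold, with log2 fold changes of 0.54 (SE 0.14) and 0.57 (SE 0.13).

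All 8 polymerase and primase genes rose in both genotypes. Pole, the catalytic subunit of the leading-strand polymerase, rose from 1.4, 1.69 and 1.81 to 18.7, 17.1 and 25.4 TPM in CD18wt and from 1.44, 1.48 and 2.69 to 18.5, 22 and 22.5 TPM in CD18Foxp3 libraries (log2 fold changes 3.24, SE 0.19, and 3.13, SE 0.23). Pola1, the catalytic subunit of the polymerase that extends primers, went from 4.94, 5.34 and 6.37 to 22.2, 22.3 and 25 TPM and from 5.85, 4.72 and 6.88 to 28.3, 26.7 and 27.1 TPM (1.66 and 1.87). In each of them every stimulated library was above every unstimulated one.

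Higher in TPM than Pole and Pola1 were Pold1 and Pold2, transcripts of the lagging-strand polymerase. Pold2, its accessory subunit, rose from 57.9, 65.7 and 70.5 to 155, 181 and 197 TPM in CD18wt and from 62.3, 70 and 68 to 120, 182 and 172 TPM in CD18Foxp3 libraries (log2 fold changes 1.06 and 0.87). Pold1, its catalytic subunit, rose from 19.4, 21.8 and 23.3 to 86.4, 76.1 and 110 TPM in CD18wt (1.67, SE 0.15) and from 22.1, 21.9 and 25.2 to 42.3, 87.8 and 85.4 TPM in CD18Foxp3 libraries (1.27, SE 0.23). For both genes stimulated CD18Foxp3 replicate 1 was the lowest of the stimulated libraries.

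Among the genes of single-strand binding and Okazaki fragment joining, Rpa2, Rpa3, Fen1 and Lig1 were called higher in both genotypes and Rpa1 in neither. Rpa1, the large subunit of the single-strand binding protein, lay at 96.9, 88.6 and 95.8 TPM unstimulated and 158, 135 and 136 TPM stimulated in CD18wt, and at 93.3, 90.7 and 103 against 114, 141 and 158 TPM in CD18Foxp3. Its groups were apart in TPM, but its log2 fold changes were 0.21 (SE 0.13, adjusted p = 0.208) and 0.16 (SE 0.13, adjusted p = 0.3). The smaller subunits gave 1.02 and 1.07 (Rpa2) and 0.81 and 0.99 (Rpa3).

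Lig1, the ligase that seals Okazaki fragments, rose from 23.8, 21.1 and 29.1 to 136, 111 and 147 TPM in CD18wt and from 21.1, 21.2 and 26.4 to 95.1, 136 and 164 TPM in CD18Foxp3 libraries (log2 fold changes 2.00, SE 0.16, and 2.16, SE 0.19). Fen1, the nuclease that trims their ends, rose from 29.4, 30.4 and 46.2 to 161, 181 and 161 TPM and from 35.4, 29.9 and 45.3 to 117, 166 and 171 TPM (1.85 and 1.67). Fen1 values are uncertain because 84.2% of its exon bases lie under Tmem258 and Gm10143 on the opposite strand. Its uniquely placed reads, 13.0% of the total, gave 2.28 and 1.61.

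The summed TPM of the genes of nucleotide supply rose 6.78-fold in CD18wt and 7.37-fold in CD18Foxp3 Treg, and all 5 of its genes were called higher in both. Rrm2, the regulatory subunit of ribonucleotide reductase, which makes deoxynucleotides (ENSMUSG00000020649, chr12:24708241-24714146), went from 11, 11.8 and 14.5 to 210, 203 and 171 TPM in CD18wt. In CD18Foxp3 it went from 12.2, 12.4 and 28.3 to 250, 215 and 280 TPM. The log2 fold changes were 3.58 (SE 0.18, adjusted p = 5e-08) and 3.46 (SE 0.31, adjusted p = 2e-05).

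Dut, the dUTPase that keeps uracil out of DNA, rose from 37.1, 42.7 and 44.5 to 190, 186 and 182 TPM in CD18wt and from 38.7, 34.1 and 39.8 to 189, 175 and 184 TPM in CD18Foxp3 libraries (log2 fold changes 1.77 and 1.92). The reductase partner Rrm1 rose by 2.01 and 2.19, less than Rrm2. Tyms, which makes thymidylate, rose by 2.31 and 2.37, and Tk1, which salvages thymidine, by 2.87 and 2.64.

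The 5 genes that copy chromatin and DNA methylation behind the fork all rose. Uhrf1, which recruits Dnmt1 to hemimethylated DNA, went from 7.22, 7.42 and 14.6 to 142, 141 and 180 TPM in CD18wt and from 9.05, 9 and 15.6 to 120, 170 and 185 TPM in CD18Foxp3 libraries (log2 fold changes 3.59, SE 0.31, and 3.46, SE 0.24). Dnmt1, the maintenance methyltransferase, rose from a higher base of 38.3, 38.8 and 47.8 to 143, 122 and 185 TPM and from 41.1, 40.8 and 41.7 to 109, 156 and 174 TPM (1.43 and 1.46). Replicate 3 held the highest unstimulated value of both genes in each genotype.

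The histone chaperone CAF-1 rose in both of its measured subunits. Chaf1a went from 1.34, 1.58 and 2.17 to 27.3, 26.3 and 30.8 TPM in CD18wt and from 1.65, 1.35 and 3.12 to 15.7, 29.7 and 35.2 TPM in CD18Foxp3 libraries (log2 fold changes 3.67, SE 0.20, and 3.35, SE 0.36). Chaf1b went from 4.18, 4.69 and 4.63 to 33.3, 23.2 and 28.5 TPM and from 5.54, 5.45 and 7.35 to 25.8, 30.4 and 32.2 TPM (2.24 and 1.91). Of the Chaf1a exon bases, 52.5% lie under Ubxn6 on the opposite strand. Slbp, which processes and stabilises histone mRNA, rose by 0.96 and 0.99.

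Of the 6 genes of entry into S phase 5 were called higher in both genotypes, and E2f2 was the 1 gene of the 51 with a negative value. Ccne2, a cyclin E that activates Cdk2 (ENSMUSG00000028212, chr4:11191351-11204779), went from 0.857, 0.976 and 0.352 to 25, 23.7 and 23.8 TPM in CD18wt and from 1.48, 1.69 and 3.4 to 39.9, 21.6 and 27.4 TPM in CD18Foxp3 libraries. Its log2 fold changes were 4.59 (SE 0.30) and 3.41 (SE 0.35). Unstimulated CD18wt libraries held 19, 23 and 5 Ccne2 exon reads, so the gene passed the filter in CD18wt Treg only through its stimulated libraries. Ccne1, the other cyclin E, went from 3.73, 3.85 and 2.68 to 48.7, 45.9 and 40.6 TPM and from 4.11, 3.06 and 7.07 to 40, 37.8 and 45.6 TPM (3.31 and 2.76). Both cyclins were lowest in unstimulated CD18wt replicate 3 and highest among unstimulated libraries in CD18Foxp3 replicate 3.

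Of the 3 activating E2F factors, E2f1 and E2f3 rose. E2f3 rose from 4.07, 3.09 and 5.26 to 23.2, 24 and 25.6 TPM in CD18wt and from 2.32, 3.77 and 3.55 to 25.7, 26.2 and 27.3 TPM in CD18Foxp3 libraries (log2 fold changes 2.16, SE 0.22, and 2.68, SE 0.19). E2f1 rose by 3.10 and 2.58, from 1.75 to 3.77 TPM over the 6 unstimulated libraries to 14.4 to 29.3 TPM over the stimulated ones. E2f2 (ENSMUSG00000018983, chr4:136172394-136196057) lay at 17.8, 21.1 and 21.3 TPM unstimulated and 31.1, 24.8 and 20.7 TPM stimulated in CD18wt, and at 25.3, 20.4 and 38.5 against 15.4, 22.5 and 32.7 TPM in CD18Foxp3 libraries.

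The E2f2 groups overlapped in both genotypes. Its log2 fold change was -0.05 (SE 0.18, adjusted p = 0.823) in CD18wt, where the sign turned on the TPM scale (0.32), and -0.62 (SE 0.28, adjusted p = 0.089) in CD18Foxp3 Treg. The latter was called lower with no filter on low counts (adjusted p = 0.000465) and with the replicate number as a block (adjusted p = 0.00501). In CD18Foxp3 cells it ranged from -0.94 to -0.35 with 1 library left out. In TPM, E2f2 was above E2f1 and E2f3 in every unstimulated library, and in stimulated libraries the ranges of the 3 genes overlapped.

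**Figure D2:**
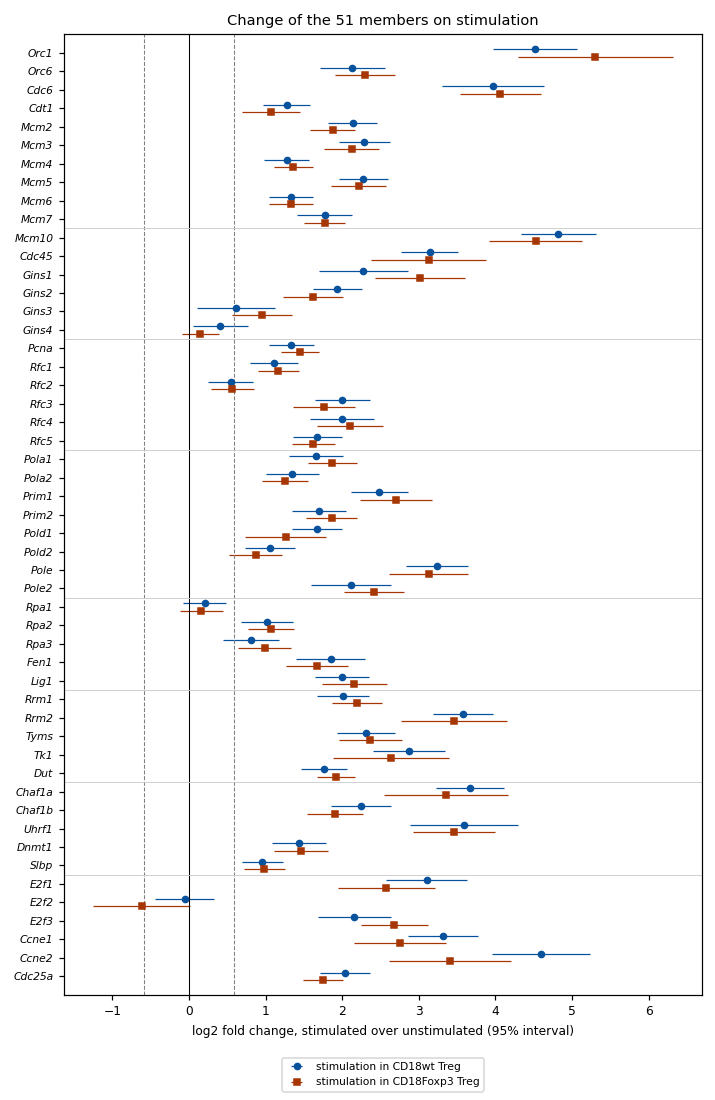
Log2 fold change on stimulation (edgeR, with 95% intervals) of all 51 genes, grouped by role, in CD18wt and CD18Foxp3 Treg. Most genes lie between about 1 and 5 in both genotypes, and Gins4, Rfc2, Rpa1 and E2f2 lie below the dashed line at 1.5-fold.

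The size of the rise went with how little RNA a gene had in unstimulated cells. In CD18wt Treg the 8 genes under 3 TPM when unstimulated rose by 2.87 to 4.82 (median 3.82), the 21 genes at 3 to 20 TPM had a median of 2.12, and the 22 genes at 20 TPM or more a median of 1.34. In CD18Foxp3 Treg the medians were 3.74 (6 genes), 2.30 (23 genes) and 1.30 (22 genes). Level and fold share the unstimulated value, and no test was made. The genes with a mean under 3 TPM in unstimulated cells of both genotypes were Orc1, Cdc6, Mcm10, Pole, Chaf1a and Ccne2.

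Members were high or low together in single libraries. Unstimulated CD18Foxp3 replicate 3 held the highest TPM of its group for 47 of the 51 genes (92.2%), beside 48.1% of the genes tested, and for all 12 markers of mitosis. Rrm2 at 28.3 against 12.2 and 12.4 TPM and Ccne1 at 7.07 against 4.11 and 3.06 TPM are examples. The mitosis markers summed to 145 TPM there and to 63.4 and 55.7 TPM in replicates 1 and 2. In unstimulated CD18wt cells replicate 3 was the highest for 30 of 51 genes (58.8%), beside 27.0% of the genes tested, with 87.8 TPM of mitosis markers against 47.8 and 47.7.

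Stimulated CD18Foxp3 replicate 1 differed from replicates 2 and 3 along the base composition of the transcripts. Over the 51 genes, its deviation from the mean of the other replicates on the log2(TPM + 1) scale had r = -0.837 with transcript GC content, and over 12633 genes r = -0.6, a description across genes that share the library. The 26 genes at or above the median GC of 49.3% lay at a median deviation of -0.40 there and the 25 genes below it at 0.14. Pold1 (42.3 against 87.8 and 85.4 TPM) and Chaf1a (15.7 against 29.7 and 35.2) lay low, while Pcna and Rfc4 were highest in that library. Replicates 2 and 3, each set against a mean that includes replicate 1, had r = 0.751 and 0.656, and the other 9 libraries -0.258 to 0.23. Without replicate 1 the number of genes called higher in CD18Foxp3 Treg stayed between 47 and 48, as it did without any other library.

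**Figure D3:**
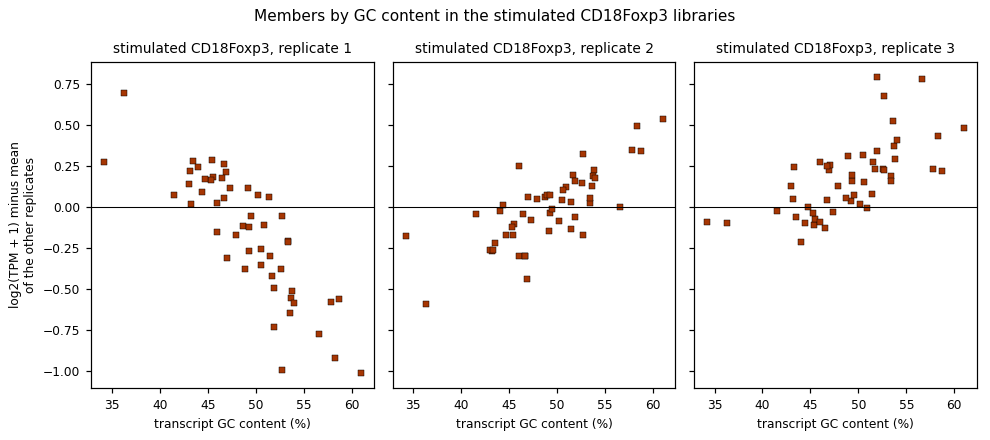
Difference of each of the 51 genes from the mean of the other replicates, in log2(TPM + 1), against transcript GC content (percent) in the stimulated CD18Foxp3 libraries. Replicate 1 falls with GC content (r = -0.837), and replicates 2 and 3 rise with it (r = 0.751 and 0.656).

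Reads in introns come largely from RNA not yet spliced and were counted apart. In CD18Foxp3 Treg, 49 of the 51 genes could be tested and 30 were called higher, against 15.0% of the 10260 genes tested, and 2 lower, against 15.4%. In CD18wt Treg, 45 could be tested, of which 12 were called higher, against 2.71% of 9492 genes, and 0 lower, against 5.09%. The filter keeps a gene with enough reads in 1 group alone, so genes with almost no unstimulated intron reads could only be called higher. Of the 12, this holds for Mcm10 and Chaf1a (0 reads in each unstimulated CD18wt library) and for Cdc6 (1, 0 and 2). It also holds for Mcm5 (5, 12 and 0), Cdc45 (2, 5 and 0), Gins3 (3, 3 and 0), Pole (3, 4 and 2) and Uhrf1 (0, 0 and 4). Lig1 and Tk1 also fell short in the unstimulated libraries alone, so only Pola2 and Dut passed through either group. In CD18Foxp3 Treg it holds for genes such as Mcm10 (1, 0 and 0), Cdc45 (0, 1 and 3), Pole (1, 0 and 3) and Rrm2 (3, 1 and 0). Gins2 and Fen1 were untested in both genotypes, and Rfc3, Rfc4, Rpa3 and Rrm1 in CD18wt. The members' intron reads summed to 1048, 1117 and 239 in unstimulated and 1936, 1871 and 4019 in stimulated CD18wt libraries, and to 1317, 914 and 1018 against 3914, 3329 and 2991 in CD18Foxp3.

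Unstimulated CD18wt replicate 3 stood apart, with introns giving 1.10% of the members' reads against 3.29% in replicates 1 and 2. The CD18wt count depended on single libraries: it was 17 higher and 1 lower without unstimulated replicate 3, 7 higher without unstimulated replicate 1 or 2 or stimulated replicate 1, 6 without stimulated replicate 2 and 3 without stimulated replicate 3. In CD18Foxp3 Treg the count of higher genes ranged from 25 to 28 with 1 library left out. The lower count there was 1 without unstimulated replicate 1 and 0 without stimulated replicate 2.

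Mcm10 had 0 intron reads in the 3 unstimulated CD18wt libraries and 36, 63 and 45 in the stimulated ones, and 1, 0 and 0 against 33, 23 and 41 in CD18Foxp3. Dut introns held 41, 39 and 5 reads unstimulated and 162, 152 and 204 stimulated in CD18wt, and 52, 41 and 46 against 385, 244 and 254 in CD18Foxp3 libraries (log2 fold changes 2.26, SE 0.39, and 2.10, SE 0.23). Mcm5 introns held 5, 12 and 0 against 80, 51 and 181 reads and 19, 11 and 14 against 185, 190 and 116 (3.70 and 2.91). For these 3 genes stimulated libraries were higher in introns as in exons. Mcm10 in both genotypes and Mcm5 in CD18wt Treg passed the intron filter only through their stimulated libraries. Their direction in introns was fixed in advance there.

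Pcna and Rpa1 went the other way in introns. Pcna had 256, 170 and 144 intron reads in unstimulated and 205, 100 and 132 in stimulated CD18Foxp3 libraries, a log2 fold change of -0.93 after scaling (SE 0.22, adjusted p = 0.00045), where its exon reads rose by 1.45. In CD18wt it had 229, 181 and 1 against 96, 43 and 166 reads (-0.73, SE 0.98, adjusted p = 0.673). Rpa1 introns fell by 0.75 (SE 0.21, adjusted p = 0.0026) in CD18Foxp3 and gave 0.13 (SE 0.30, adjusted p = 0.812) in CD18wt Treg. Ccne2 introns showed no called change, with 12, 33 and 0 against 17, 22 and 23 reads in CD18wt and 23, 26 and 13 against 42, 21 and 14 in CD18Foxp3 libraries, while its exon reads rose steeply.

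**Figure D4:**
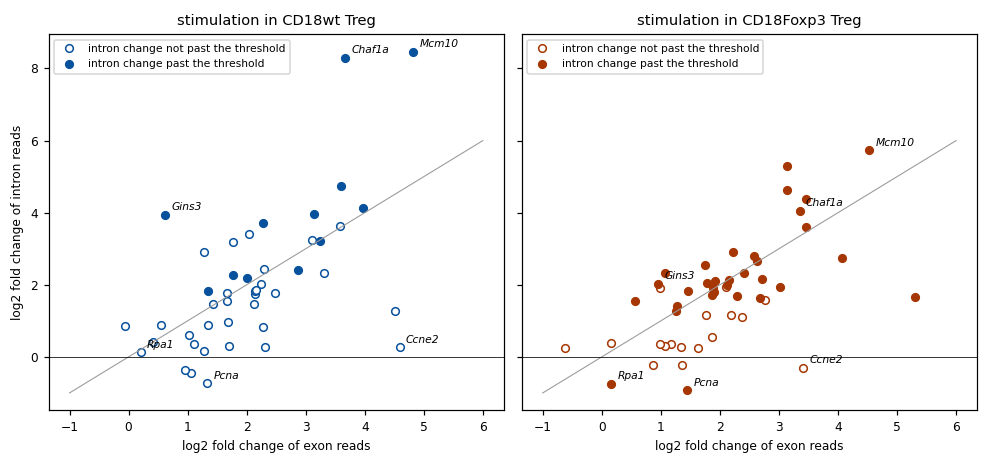
Log2 fold change on stimulation from intron reads against that from exon reads, for the members tested in each genotype. Most points lie above 0 on both axes, and Pcna and Rpa1 in CD18Foxp3 Treg lie below 0 on the intron axis (-0.93 and -0.75).

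The rest of the pathway was read from 4 lists that hold 76 genes. Of 33 other replication genes, 20 were called higher and 1 lower in CD18wt and 23 higher and 1 lower in CD18Foxp3 Treg, with medians of 1.33 and 1.45. The checkpoint adaptor Clspn rose by 4.09 and 3.44 and the nuclease-helicase Dna2 by 3.96 and 3.50. Pold4, the smallest subunit of the lagging-strand polymerase, fell by 1.48 and 1.42, from 120, 119 and 116 to 61.3, 50.5 and 56.7 TPM in CD18wt. It was named after its values were seen, as were the other falling genes below.

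Of 17 other genes of nucleotide supply, 13 were called higher and 3 lower in each genotype. Shmt1, of folate metabolism, rose by 3.71 and 3.68 and Dctpp1, a nucleotide-pool hydrolase, by 2.81 and 2.80. The 3 that fell were Rrm2b, Tk2 and Samhd1. Rrm2b, the reductase subunit of resting cells, fell by 1.25 and 1.12, Tk2, the mitochondrial thymidine kinase, fell by 1.12 and 1.62, and Samhd1, which degrades deoxynucleotides, fell by 1.01 and 1.29.

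Of 9 other chromatin-copying genes, 7 were called higher and 0 lower in each genotype, led by the remodeller Hells (3.33 and 3.41) and the histone chaperone Asf1b (2.02 and 2.00). Of 17 genes of the E2F and RB families and S phase control, 12 were called higher in each genotype. The repressor E2f7 rose by 4.82 and 4.17 and cyclin A2 (Ccna2) by 3.75 and 3.20. Rbl2, the p130 pocket protein that represses E2F targets at rest, was the 1 gene called lower in CD18wt Treg (-1.21, SE 0.19, adjusted p = 0.00026) and missed the threshold in CD18Foxp3 (-0.88, SE 0.26, adjusted p = 0.016).

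No member differed between the genotypes past the threshold. In unstimulated Treg 0 of 51 genes were called by edgeR, against 0.135% of the 11829 genes tested (16 genes). In stimulated Treg 0 of 51 were called against 0.0% of 11930, and for the interaction of genotype and stimulation 0 of 51 against 0.0% of 12636. Itgb2, the deleted gene, was itself not called in stimulated cells, though its genotypes did not overlap there. DESeq2 and limma also called 0 members in each. At an unadjusted p under 0.05 edgeR gave 2 of 51 members in unstimulated cells (9.59% of all genes), 0 in stimulated cells (4.89%) and 1 for the interaction (3.84%). None of the genes in the 4 other lists was called in any of the 3 comparisons.

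The intervals say how large a difference could have been missed. The 95% interval of the genotype difference lay wholly within 1.5-fold either way for 30 of 51 genes in unstimulated and 38 of 51 in stimulated cells, but for 14 of 51 in the interaction. Pcna had an interval of -0.18 to 0.20 in unstimulated and -0.19 to 0.43 in stimulated cells on the log2 scale. Orc1 had one of -2.08 to 0.85 in unstimulated cells, where it was near its lowest level. Groups did not overlap in TPM for 6 members in unstimulated cells, against 15.6% of all genes, and for 5 in stimulated cells, against 9.43%.

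Ccne2 had the smallest p in unstimulated Treg and in the interaction. The CD18Foxp3 libraries, at 1.48, 1.69 and 3.4 TPM, all lay above the CD18wt ones, at 0.857, 0.976 and 0.352 TPM. Exon reads were few, 37, 34 and 74 against 19, 23 and 5. Ccne2 passed the filter here only through CD18Foxp3, the group where it was higher. It was not tested where at least 10 reads were required in every library. The log2 difference was 1.52 (95% interval 0.43 to 2.61, adjusted p = 0.295), and over the other settings it was 0.86 to 1.63 with an adjusted p of 0.113 to 0.403. In stimulated cells the genotypes overlapped (0.31, adjusted p = 0.998), and the interaction was -1.18 (-2.18 to -0.19, adjusted p = 0.987). Of the Ccne2 exon bases 17.4% lie under Ints8 on the opposite strand.

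Other members with small unadjusted p were no closer to the threshold. Gins2 (0.41, adjusted p = 0.501) and Chaf1b (0.41, adjusted p = 0.531) were higher in all 3 unstimulated CD18Foxp3 libraries than in any CD18wt one. In stimulated cells Rrm2 (0.36), Pola1 (0.25) and Gins3 (0.35) were higher in all 3 CD18Foxp3 libraries, each with an adjusted p of 0.998. Gins1 (0.73) and E2f3 (0.52) had positive interactions with an adjusted p of 0.987.

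The direction over the members depended on single libraries: it turned in unstimulated cells and weakened to a median of 0.0 in stimulated cells. In unstimulated cells, 36 of 51 genes had a positive genotype difference with a median of 0.06, but without CD18Foxp3 replicate 3, the library with the most mitosis marker RNA, 19 were positive with a median of -0.03. In stimulated cells 32 of 51 were positive with a median of 0.06, and without CD18Foxp3 replicate 1, 40 were positive with a median of 0.08. Without CD18Foxp3 replicate 3, which also held the most mitosis marker RNA of its state, 26 were positive with a median of 0.0.

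**Figure D5:**
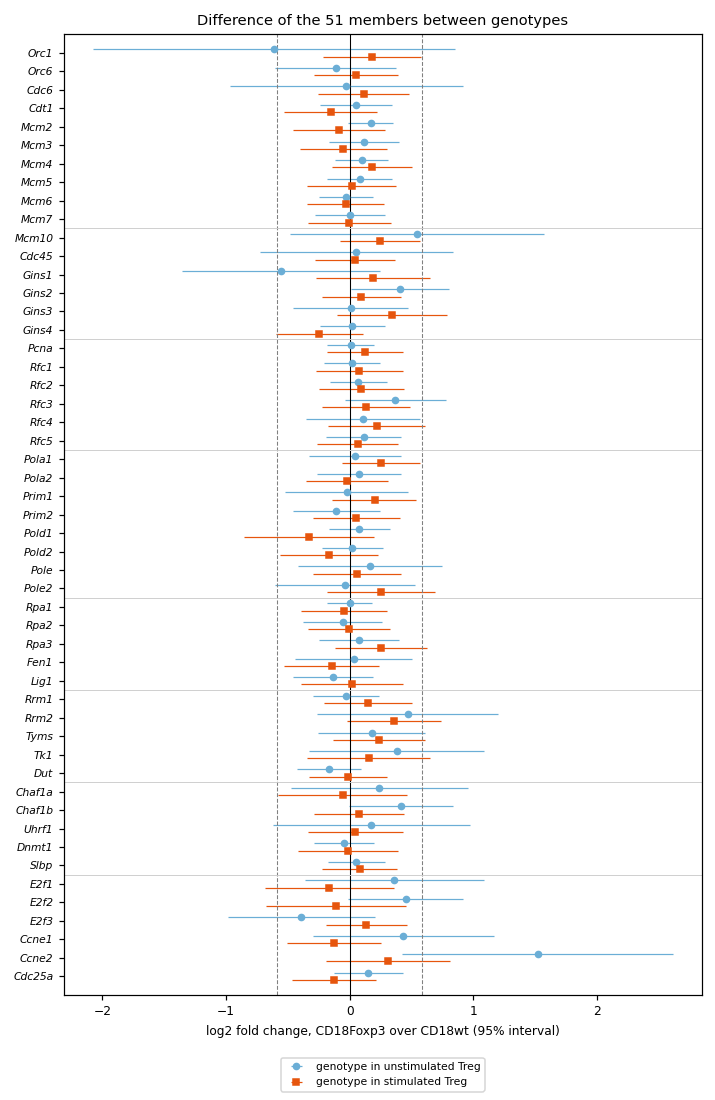
Log2 difference of CD18Foxp3 against CD18wt (edgeR, with 95% intervals) for the 51 genes in unstimulated and stimulated Treg. Most intervals cross 0, Ccne2 in unstimulated cells (1.52, 0.43 to 2.61) is the farthest from it, and no gene passed the threshold.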

How the data were processed

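Treg were sorted from mouse spleen, and poly(A) RNA (10 ng of total RNA) was made into libraries with 15 PCR cycles and read as single 59-base reads. The authors mapped the reads to GRCm38 in CLC Genomics Workbench with default settings and deposited, for each library, counts of exon and intron reads per gene (total and uniquely placed). The deposited TPM values, written with decimal commas, are the authors' scaling of exon reads to gene length and library total. The gene annotation is not given in the sources used here. The kit does not mark strand, so reads of overlapping genes on opposite strands cannot be told apart.

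Groups and replicate numbers came from the labels, which call the samples biological replicates. p-values measure the spread between these samples, and with no molecular identifiers counts are not independent molecules. Total exon reads were tested in R 4.3.3 with edgeR 4.0.16 (TMM scaling, filterByExpr with a minimum count of 10, robust quasi-likelihood test) over all genes, with Benjamini-Hochberg adjustment, separately for each pair of groups and over all 12 libraries for the interaction. The threshold, a fold change of 1.5 and an adjusted p of 0.01, follows the study's methods, whose own test was not used. Intron reads were tested in the same way. Alternatives were DESeq2 1.42.0, upper-quartile scaling, no filter or at least 10 reads in every library, reads placed at 1 position only, the replicate number as a block, limma 3.58.1 with log2(TPM + 1) or log2(TPM + 0.1) as input, 1 fit of all libraries, an adjusted p of 0.05, no fold minimum and each library left out. Leaving out libraries in the intron test was chosen after seeing the data.

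Values in each library were given for the 2 genes of each role with the highest mean TPM, the gene of each role with the largest change in CD18wt Treg, genes of opposite sign and the 3 with the smallest p in each genotype comparison. From each of the other pathway lists and from the mitosis markers the 2 with the largest called change were named. The members and lists were chosen with earlier results of these data known. The edgeR step was tested on simulated counts. pandas 2.3.3 (Python 3.11.15) was used for the tables, matplotlib 3.10.9 for the figures. Exon overlaps came from GENCODE M21. The summed level of the B cell markers is not reported here.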

Additional observations from a re-analysis of the deposited data

How the results depend on the processing

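The number of members called higher on stimulation ranged from 45 to 50 in CD18wt Treg and from 46 to 48 in CD18Foxp3 Treg over the other settings, and from 45 to 47 and 47 to 48 with 1 library left out. The number called in the genotype comparisons and the interaction was 0 under every setting run. In CD18Foxp3 Treg the number called lower went from 0 to 1 (E2f2) with no filter and to 1 with the replicate block. E2f2 in CD18wt Treg turned from -0.05 to 0.32 with limma on log2(TPM + 1), to 0.33 on log2(TPM + 0.1), and to 0.03 and 0.10 without unstimulated or stimulated replicate 3 (range with 1 library left out -0.20 to 0.10). The cause was not tested. Gins3, Gins4 and Rpa1 passed the threshold in CD18wt Treg on the TPM scale (0.93, 0.80 and 0.60). With 1 library left out, the intron calls ranged from 3 to 17 higher (12 with all libraries) and 0 to 1 lower in CD18wt, and from 25 to 28 higher (30) and 0 to 2 lower (2) in CD18Foxp3 Treg.

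In CD18Foxp3 Treg same-numbered unstimulated and stimulated samples deviated together (r = 0.135, 0.0696 and 0.147 over 12636 genes). Differently numbered ones there had r = -0.124 to -0.0213. In CD18wt Treg the same-numbered samples had r = 0.0958, -0.0195 and -0.0945. The largest values there were 0.11 (unstimulated replicate 3 with stimulated replicate 2) and 0.0985 (2 with 3). Whether samples are paired is therefore not settled, and the replicate number was used as a block only in an alternative fit. The replicate block left 46 and 47 members called higher and moved the calls over all genes from 16 to 41 (16 higher and 25 lower) between genotypes in unstimulated cells. Over all genes, limma on log2(TPM + 1) called 3589 higher and 858 lower in CD18wt against 2234 and 1779 by edgeR, and 3783 and 1201 against 2516 and 2120 in CD18Foxp3 Treg. The genotype calls in unstimulated cells, 16 by edgeR, ranged from 0 to 134 over the other settings and from 0 to 44 with 1 library left out. In stimulated cells they ranged from 0 to 61 and 0 to 2, and for the interaction from 0 to 31 and 0 to 0, against 0 by edgeR. With 10665174 to 19005482 exon reads per library, intervals in unstimulated cells were wide for genes of low level, such as Orc1 and Ccne2.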

Other observations

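Markers of mitosis, the phase after DNA replication, rose with the replication genes. Of 12 markers, 11 were called higher in each genotype by edgeR (median log2 fold changes 3.02 in CD18wt and 3.08 in CD18Foxp3 Treg). Aurkb, the Aurora B kinase, rose by 4.28 and 3.40 and Cdk1, the mitotic kinase, by 3.93 and 3.95. Ccnb2, a B-type cyclin, was the 1 marker not called (0.48 and 0.82, adjusted p = 0.348 and 0.163), with 8.86, 8.14 and 23 TPM in unstimulated and 24.9, 27.1 and 21.3 TPM in stimulated CD18wt libraries. Without stimulated CD18Foxp3 replicate 1, 8 were called higher there.

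Between genotypes 0 of the 12 mitosis markers were called, and all 12 had a positive difference of CD18Foxp3 against CD18wt in unstimulated (median 0.48) and in stimulated cells (median 0.50). In unstimulated cells 6 of 12 were positive without CD18Foxp3 replicate 3 (median -0.03). In stimulated cells 11 or 12 stayed positive with any 1 library left out, with medians of 0.30 to 0.61, the lowest without CD18Foxp3 replicate 3. That library was the highest of its group for all 12 markers, which summed to 901 TPM there and to 615 and 672 TPM in replicates 1 and 2. At an unadjusted p under 0.05 edgeR gave 7 of the 12 in stimulated cells, beside 4.89% of all genes. Mki67, which the naming rule did not pick, stood at 54.3, 34.7 and 59.3 TPM in stimulated CD18wt and 67.9, 74.9 and 88.6 TPM in stimulated CD18Foxp3 libraries. These groups did not overlap, as for 9.43% of all genes tested in stimulated cells (edgeR log2 difference 0.67, SE 0.18, adjusted p = 0.627).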
